A study of Mus musculus with 9 samples.

Results

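The miRNAs mmu-miR-21a-5p, mmu-miR-21a-3p, mmu-miR-146a-5p and mmu-miR-146b-5p (mmu- is the prefix for mouse, left out below) were chosen by name as injury-linked and inflammation-linked miRNAs, and are 4 of the 1607 known mouse miRNA names counted in whole embryonic kidneys. All 4 were counted in all 9 libraries and all 4 passed the filter on low counts that left 955 miRNAs for testing. The kidneys came from embryos at embryonic day 16.5, in 3 groups of 3 libraries each. The first group was labelled DROSHA knockout, the second carried a transgene labelled DROSHA-E1147K, and the third was labelled wild type and served as control for both. The series states that 2 mouse lines were examined, and the labels used here do not name the lines, the cells or promoter in which Drosha was altered, or whether libraries came from separate animals. Each value therefore describes a whole kidney with all its cell types, and fewer cells of a type cannot be told apart from less of an RNA in each cell.

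DROSHA, an RNase III enzyme of the nucleus, cuts primary miRNA transcripts and frees the hairpin from which both mature arms, 5p and 3p, are made. miR-21 is among the most abundant miRNAs of many tissues, is known for its increase in injured and fibrotic kidney, and represses Pdcd4. miR-146a and miR-146b are induced by NF-kB and repress Traf6 and Irak1, 2 signalling proteins upstream of NF-kB, so they act as feedback brakes on inflammatory signalling.

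The 4 mature sequences are shown because the comparisons turn on which of them share a seed, the bases 2 to 8 that pair with target mRNAs, given here in capitals. They were taken from RefSeq (GRCm38.p6, the mm10 assembly) and run 5′ to 3′.
miR-146b-5p: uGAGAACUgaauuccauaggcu
miR-146a-5p: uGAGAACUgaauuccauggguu
miR-21a-5p: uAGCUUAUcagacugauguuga
miR-21a-3p: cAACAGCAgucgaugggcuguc

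miR-146a-5p and miR-146b-5p have the same seed and are identical in 20 of 22 bases, differing by G18A and U21C (the miR-146a-5p base first, counted from 1 at the 5′ end, then the miR-146b-5p base). Reads that stop before position 18 cannot be told apart between them, and how the authors assigned such reads is not given in the labels or file headers. The 2 arms of miR-21a have different seeds. No other miRNA counted here had the seed of any of the 4.

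The 2 miR-146 hairpins are shown because the genes are separate and differ outside the shared 5p arm. Capitals mark the annotated 5p and 3p arms.
Mir146: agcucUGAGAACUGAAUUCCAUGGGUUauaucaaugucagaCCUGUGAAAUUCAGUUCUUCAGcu
Mir146b: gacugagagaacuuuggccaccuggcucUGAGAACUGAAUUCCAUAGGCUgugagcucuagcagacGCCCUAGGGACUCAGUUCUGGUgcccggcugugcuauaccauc

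Mir146, the gene of miR-146a, lies at chr11:43374397-43374461 on the minus strand and overlaps no other gene of GENCODE vM21. Mir146b lies at chr19:46342762-46342870 on the plus strand, within the gene Mfsd13a and outside its exons, so it is intronic. Mir21a lies at chr11:86584067-86584158 on the minus strand, inside the exon of Vmp1 that spans chr11:86583865-86585451 on the same strand and forms the 3′ end of that gene.

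Libraries held 24350500 to 34896599 miRNA reads. Levels are given as CPM, reads per 1e6 miRNA reads after TMM scaling, and unscaled CPM leaves that scaling out. Both are relative to the other miRNAs of a library, so they cannot show a change shared by all miRNAs. Whether the total amount of miRNA differed between groups was not tested. Shares of all miRNAs whose groups did not overlap are for TMM-scaled levels. All 10 miRNAs of a kidney epithelium list were present in every library. They summed to 50566 to 104150 CPM in knockout, 86006 to 138280 CPM in transgene and 153800 to 171940 CPM in control libraries. The largest part of this sum was miR-10a-5p, which averaged 44392 CPM in knockout, 62418 CPM in transgene and 97856 CPM in control libraries. The sum is therefore not a measure of epithelial content. The library knockout 3 stood apart, with striated muscle markers summing to 10513 CPM, whereas the lowest knockout library was at 458 CPM and controls ranged up to 1254 CPM. Folds, ratios and list medians of the knockout against control are therefore also given without it.

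The level of miR-146b-5p was lower in both DROSHA groups than in any control. It stood at 63.5, 66.0 and 64.5 CPM in knockout libraries 1 to 3, at 49.3, 48.6 and 41.9 CPM in transgene libraries 1 to 3, and at 93.5, 95.2 and 105.9 CPM in control libraries 1 to 3. No group overlapped another, and the order of the levels was transgene, knockout, control. Such separation was common in these libraries, since the groups did not overlap for 28.5% of all miRNAs tested between knockout and control, 24% between transgene and control and 10.4% between knockout and transgene. Group means were 64.6 ± 1.26 CPM in the knockout, 46.6 ± 4.12 CPM with the transgene and 98.2 ± 6.69 CPM in controls (SD, n = 3 each). These levels rest on 1217 to 2977 reads per library. Unscaled, the 3 groups also did not overlap.

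**Figure D1:**
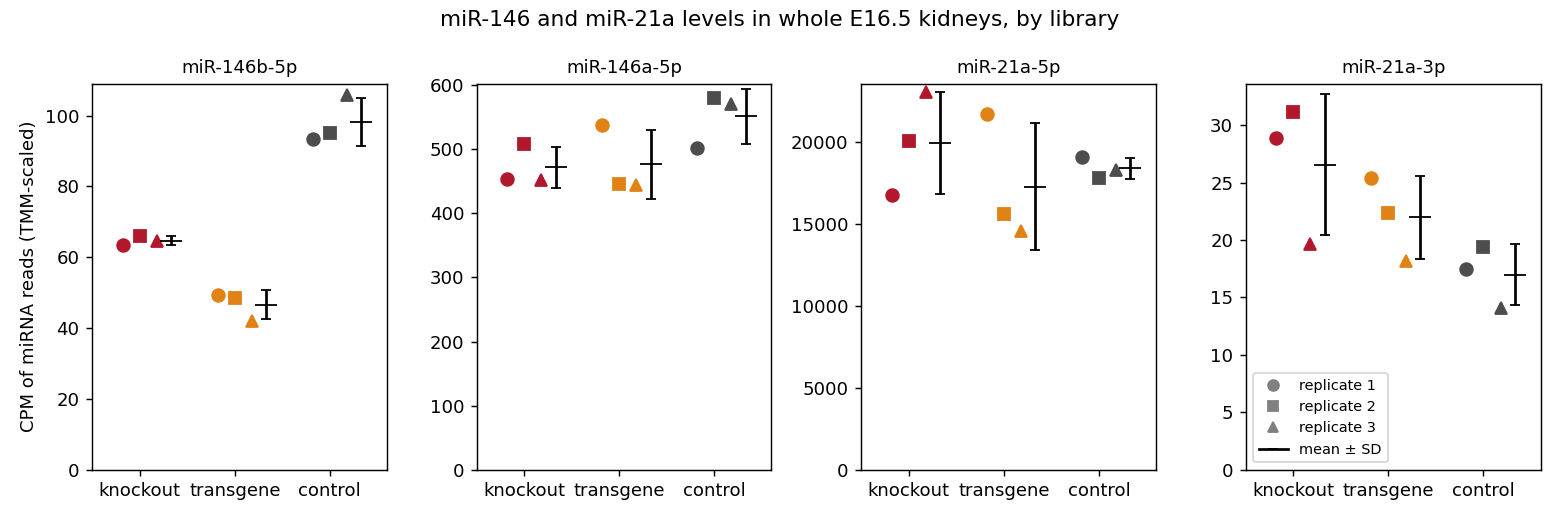
Level of each miRNA in CPM (TMM-scaled, y axis from 0) in 3 knockout, 3 transgene and 3 control libraries, with the marker shape giving the replicate number and the black bar the mean ± SD. For miR-146b-5p the 3 groups are separate (63.5 to 66.0, 41.9 to 49.3 and 93.5 to 105.9 CPM), while the groups of miR-146a-5p and miR-21a-5p overlap.

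The fold change of miR-146b-5p against control was -1.08 on the log2 scale for the transgene (SE 0.20, 95% interval -1.54 to -0.61), or 0.475 times the control level. It had the smallest unadjusted p of the 955 miRNAs in that comparison (0.00055), but edgeR's quasi-likelihood test with Benjamini-Hochberg adjustment gave an adjusted p of 0.398. In the knockout the log2 fold change against control was -0.60 (SE 0.20, 95% interval -1.06 to -0.14), or 0.658 times, with an unadjusted p of 0.0158 and an edgeR adjusted p of 0.137. Without knockout 3 the fold was -0.51 (edgeR adjusted p 0.253). Knockout over transgene, the test of the difference between both comparisons, gave a log2 fold of 0.47 (SE 0.20, edgeR adjusted p 0.652).

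Both comparisons with controls use the same 3 control libraries. Neither had a miRNA past the edgeR threshold of 0.05 (0% of 955 in each), although 245 miRNAs in the knockout (25.7%) and 84 with the transgene (8.8%) had an unadjusted p under 0.05. Between knockout and transgene 7.02% of miRNAs had one. In the knockout comparison DESeq2 called 104 miRNAs, or 10.9%, including miR-146b-5p (DESeq2 adjusted p 0.0269, within a range of 0.0269 to 0.301 over all settings). In the transgene comparison DESeq2 called 4, or 0.419%, including miR-146b-5p (DESeq2 adjusted p 2.51e-05, within a range of 2.51e-05 to 0.99 over all settings). DESeq2 called none of the other 3 miRNAs in any comparison, and none of the 4 between knockout and transgene, where it called 0.314% of miRNAs.

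The other miR-146, miR-146a-5p, did not separate the groups. It stood at 454, 509 and 453 CPM in the knockout libraries, at 538, 447 and 445 CPM in the transgene libraries and at 503, 581 and 571 CPM in the controls. Both DROSHA groups overlapped the controls through control 1. Means were 472 ± 32.0 CPM in the knockout, 476 ± 53.1 CPM with the transgene and 552 ± 42.5 CPM in controls (SD, n = 3 each). The log2 fold change was -0.22 in the knockout (SE 0.19, 95% interval -0.66 to 0.21, edgeR adjusted p 0.500) and -0.21 with the transgene (SE 0.19, 95% interval -0.64 to 0.22, edgeR adjusted p 0.718). Leaving out knockout 3 gave a knockout fold of -0.098 (edgeR adjusted p 0.830). These small folds depended on scaling. With library sizes set to total miRNA reads they were -0.013 and -0.004. The median fold of all miRNAs was then 0.19 in the knockout and 0.18 with the transgene, so both folds stayed below the median. Mean unscaled levels were 495 CPM in the knockout, 499 CPM with the transgene and 500 CPM in controls (n = 3 each).

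Because both miR-146 5p arms were counted in the same library, their ratio needs no scaling between libraries. miR-146b-5p made up 12.3%, 11.5% and 12.5% of the summed miR-146a-5p and miR-146b-5p reads in knockouts 1 to 3. The share was 8.40%, 9.82% and 8.60% in transgene libraries 1 to 3, and 15.7%, 14.1% and 15.6% in controls 1 to 3. The 3 groups did not overlap in this share. The 95% Wilson intervals, which cover counting error only, ran from 11.0% to 13.0% over the knockout libraries, from 7.98% to 10.3% over the transgene libraries and from 13.6% to 16.2% over the controls. Intervals of one group therefore did not reach those of another.

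The log2 ratio of miR-146b-5p to miR-146a-5p was -2.87 ± 0.07 in the knockout, -3.35 ± 0.13 with the transgene and -2.49 ± 0.10 in controls (SD, n = 3 each). It differed by -0.38 between knockout and control, by -0.86 between transgene and control and by 0.49 between knockout and transgene. The exact two-sided permutation p was 0.1 in each, the smallest that 3 against 3 libraries allow, and 0.18 after Benjamini-Hochberg adjustment over 9 tests (3 ratios in 3 comparisons). The difference between knockout and control was -0.40 without knockout 3. With any single library left out it stayed between -0.44 and -0.34 for the knockout against control, between -0.94 and -0.82 for the transgene against control and between 0.44 and 0.56 for knockout against transgene.

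**Figure D2:**
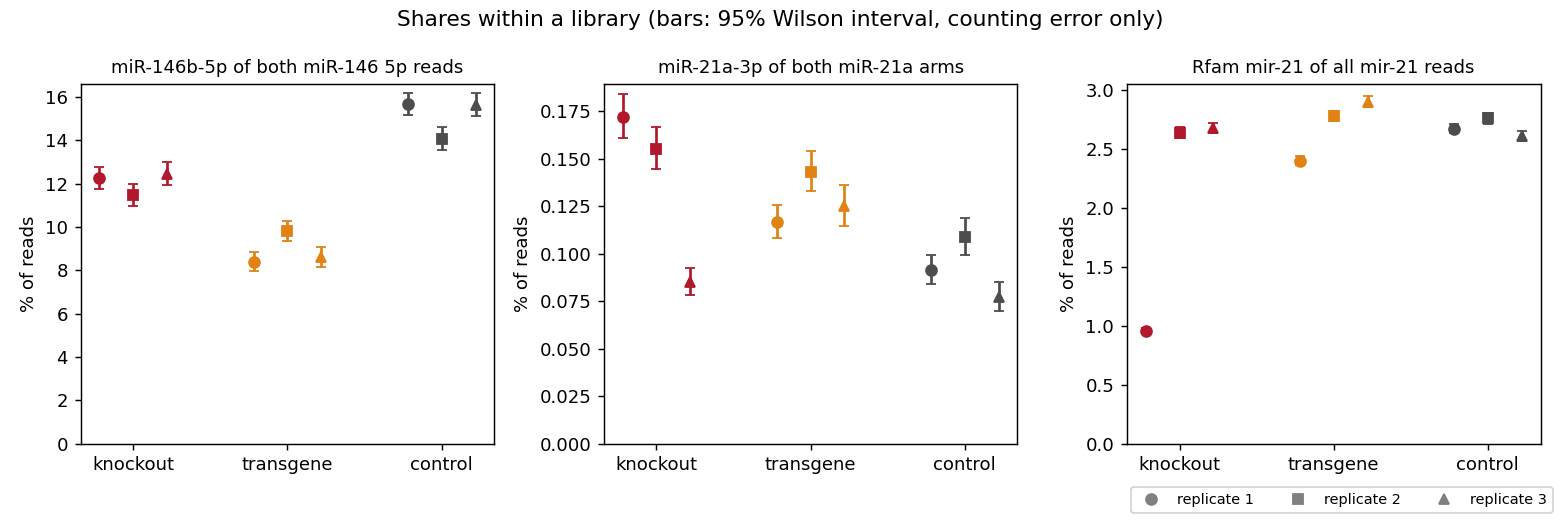
Shares of reads within each library (y axes in percent, from 0; bars are 95% Wilson intervals for counting error only; marker shape gives the replicate number), for knockout, transgene and control libraries. Left, miR-146b-5p among both miR-146 5p reads separates the 3 groups; middle, miR-21a-3p among both miR-21a arms overlaps between knockout and control through knockout 3; right, the Rfam mir-21 share is 0.953% in knockout 1 and 2.40% to 2.90% in the other 8 libraries.

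The 3p arms of miR-146 were close to undetected. miR-146a-3p was counted with at most 4 reads in any library, and miR-146b-3p with 1 read in knockout 1 and 1 read in knockout 2. No fold is given for either. The 5p arm was thus the arm read from both miR-146 hairpins in every library.

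miR-21a-5p was the most abundant of the 4, ranking 10th to 25th among all miRNAs of a library by CPM. It stood at 16769, 20058 and 23018 CPM in the knockout libraries, at 21722, 15580 and 14538 CPM in the transgene libraries and at 19085, 17797 and 18293 CPM in the controls. The controls had a mean of 18392 ± 649.6 CPM (SD, n = 3), a coefficient of variation of 3.53%, and fell inside the range of both DROSHA groups, whose coefficients of variation were 15.7% in the knockout and 22.5% with the transgene. The log2 fold change was 0.12 in the knockout (SE 0.19, 95% interval -0.32 to 0.56, edgeR adjusted p 0.739) and -0.09 with the transgene (SE 0.19, 95% interval -0.53 to 0.35, edgeR adjusted p 0.907). Leaving out knockout 3 gave a knockout fold of 0.099 (edgeR adjusted p 0.841). Knockout over transgene it was 0.21 (SE 0.19, edgeR adjusted p 0.732).

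The direction for miR-21a-5p depended on how libraries were scaled. Unscaled, all 3 knockout libraries, at 18683, 20237 and 23717 CPM, lay above all 3 controls, at 17410, 15694 and 16932 CPM. For how many of all miRNAs unscaled levels separated these groups was not counted. With total miRNA reads as library size the log2 fold of the knockout was 0.32 (edgeR adjusted p 0.196), and that of the transgene was positive at 0.10 (edgeR adjusted p 0.868). That scaling moved the median fold of all miRNAs from near 0 to 0.19 in the knockout and 0.18 with the transgene. Relative to that shift the knockout fold of miR-21a-5p was above the median and the transgene fold was below it.

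miR-21a-3p, the minor arm of the same hairpin, was present at far lower levels, with higher means in both DROSHA groups, though neither difference passed the edgeR threshold. It stood at 28.9, 31.2 and 19.6 CPM in the knockout libraries, at 25.4, 22.4 and 18.2 CPM in the transgene libraries and at 17.5, 19.4 and 14.1 CPM in the controls, from 383 to 856 reads per library. All 3 knockout libraries lay above all 3 controls, although knockout 3 at 19.6 CPM was close to control 2 at 19.4 CPM, whereas the transgene libraries overlapped the controls through transgene 3. Of all miRNAs tested, 12.9% lay wholly above controls in the knockout. Unscaled, the transgene libraries also lay above all controls for miR-21a-3p. With total miRNA reads as library size, though, the median fold of all miRNAs was 0.18 with the transgene. The log2 fold change was 0.65 in the knockout (SE 0.27, 95% interval 0.02 to 1.26, unadjusted p 0.043, edgeR adjusted p 0.184) and 0.37 with the transgene (SE 0.27, 95% interval -0.25 to 0.99, edgeR adjusted p 0.640). Without knockout 3 the knockout fold was 0.92 (edgeR adjusted p 0.193). Knockout over transgene it was 0.27 (SE 0.27, edgeR adjusted p 0.740).

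**Figure D3:**
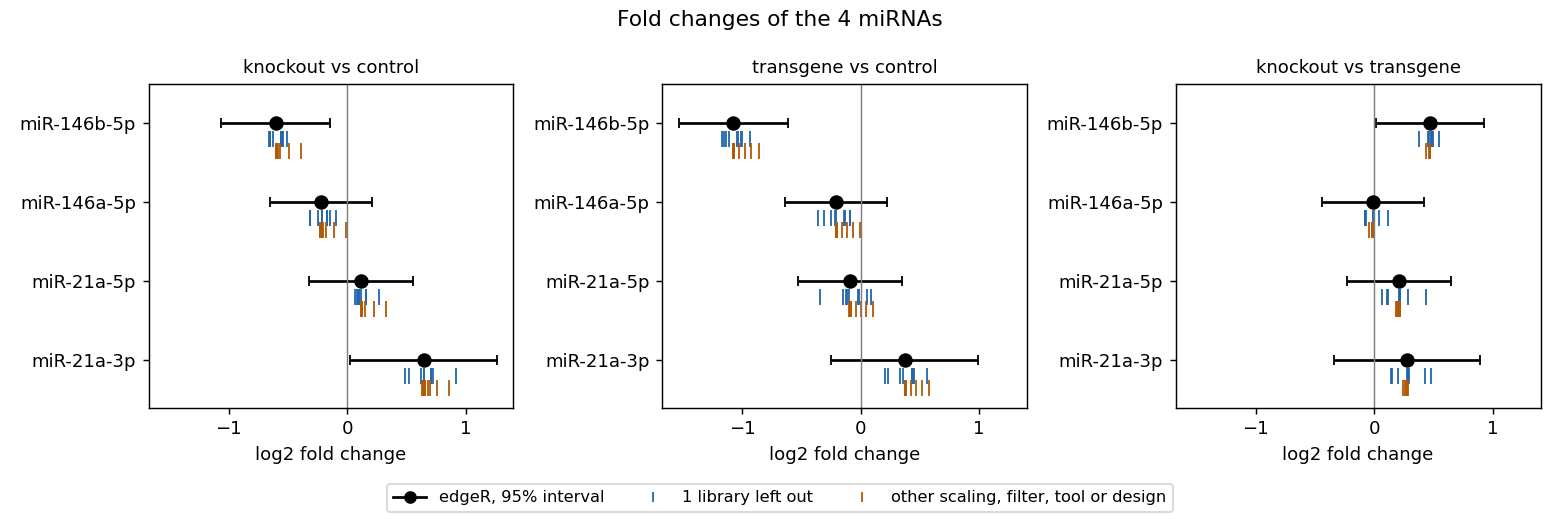
Log2 fold changes (x axis) of the 4 miRNAs in the 3 comparisons. Black points and bars are edgeR estimates with 95% intervals, blue ticks the fits with 1 library left out and brown ticks the other scalings, filters, tools and designs; miR-146b-5p stays below 0 in both comparisons with controls under each of these settings, and miR-21a-5p with the transgene lies on both sides of 0.

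As a share of both miR-21a arms, miR-21a-3p made up 0.172%, 0.155% and 0.0852% in knockouts 1 to 3. It made up 0.117%, 0.143% and 0.125% in transgene libraries 1 to 3, and 0.0916%, 0.109% and 0.0770% in controls 1 to 3. All transgene libraries lay above all controls, and knockouts 1 and 2 did so too, while knockout 3 lay among the controls. The 95% Wilson intervals ran from 0.0783% to 0.184% over the knockout libraries, from 0.108% to 0.154% over the transgene libraries and from 0.0697% to 0.119% over the controls, so at this read depth the intervals of transgenes 1 and 3 met that of control 2. The log2 ratio of the 3p to the 5p arm was -9.57 ± 0.55 in the knockout, -9.61 ± 0.15 with the transgene and -10.09 ± 0.25 in controls (SD, n = 3 each). It differed from controls by 0.48 with the transgene (exact permutation p 0.1, adjusted 0.18) and by 0.52 in the knockout (exact permutation p 0.3, adjusted 0.386). The knockout difference was 0.33 without knockout 1 (exact permutation p 0.5), 0.40 without knockout 2 (exact permutation p 0.5) and 0.84 without knockout 3 (exact permutation p 0.1, the smallest that 2 against 3 libraries allow).

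The files also hold reads assigned to the Rfam families mir-21 and mir-146, separate from the mature names. The mir-21 family took 4790, 13389 and 17520 reads in the knockout libraries, 14768, 14494 and 12658 in the transgene libraries and 16713, 12139 and 13350 in the controls. Set against the family plus both miR-21a arms, this was 0.953% in knockout 1 (95% Wilson interval 0.927% to 0.981%) and 2.40% to 2.90% in every other library. Knockout 1 was not low for miR-21a-3p, where it had 856 reads, more than any other library. The mir-146 family took 766 to 962 reads in the knockout, 881 to 931 with the transgene and 935 to 1185 in controls. With both families added as features, their edgeR adjusted p was 0.531 or more in every comparison, and the fold of miR-146b-5p against control was -1.07 with the transgene.

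The miR-146 pair was also set against miR-21a-5p within each library. The log2 ratio of summed miR-146a-5p and miR-146b-5p to miR-21a-5p was -5.21 ± 0.24 in the knockout, -5.03 ± 0.16 with the transgene and -4.83 ± 0.15 in controls (SD, n = 3 each). Knockout and control did not overlap (difference -0.38, exact permutation p 0.1, adjusted 0.18), although knockout 1 at -5.018 was close to control 1 at -5. Transgene and control overlapped (difference -0.20, exact permutation p 0.3, adjusted 0.386). Without knockout 3 the knockout difference was -0.25 (exact permutation p 0.2), and with any single library left out it ran from -0.48 to -0.25.

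Of 20 other miRNAs listed for kidney injury or inflammation, 0 passed the edgeR threshold in any comparison. In the knockout 9 had positive and 11 negative folds, with a median of -0.14 on the log2 scale, beside a median of -0.025 over all 955 miRNAs. The knockout lay wholly above controls for 3 and wholly below for 3, where 12.9% and 15.6% of all miRNAs did so. Without knockout 3 the knockout folds were 12 positive and 8 negative, with a median of 0.014 beside 0.033 over all. With the transgene 7 were positive and 13 negative, with a median of -0.16 beside -0.039 over all. After TMM scaling 2 lay wholly above and 7 wholly below controls, where 11.9% and 12% of all miRNAs did so. These counts depended on scaling. Unscaled, miR-132-3p alone lay wholly below controls, while miR-199a-3p, miR-494-3p, miR-382-5p and miR-433-3p lay wholly above. The 3 that lay wholly below controls in the knockout overlapped them unscaled. No share of all miRNAs was counted for unscaled levels. Knockout over transgene the median was 0.19 beside 0.049 over all, with 15 of 20 positive. Over all 955 miRNAs, 48.9% of folds were positive in the knockout, 46.7% with the transgene and 53.1% for knockout over transgene.

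The 3 most abundant of these 20 went different ways. miR-181a-5p, a regulator of lymphocyte signalling, averaged 27019 CPM in the knockout and 22417 CPM with the transgene, against 29700 CPM in controls. miR-181b-5p, of the same family, averaged 9590 and 8206 CPM against 11987 CPM. miR-199a-3p, a miRNA of mesenchymal cells, averaged 13101 and 16489 CPM against 3245 CPM in controls, with log2 folds of 2.01 (SE 0.81, edgeR adjusted p 0.178) and 2.34 (SE 0.82, edgeR adjusted p 0.529). Its sequence is shared with another gene copy, so its counts cannot be tied to 1 locus. The other arm, miR-199a-5p, is also among the 20 and did not show a change of that size. miR-199a-5p averaged 6163 and 4480 CPM against 4556 CPM in controls, with log2 folds of 0.44 and -0.02. miR-132-3p, induced by CREB in neurons and macrophages, averaged 23.0 and 19.7 CPM against 46.2 CPM in controls. It is named here because its profile over libraries was among those most like miR-146b-5p.

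**Figure D4:**
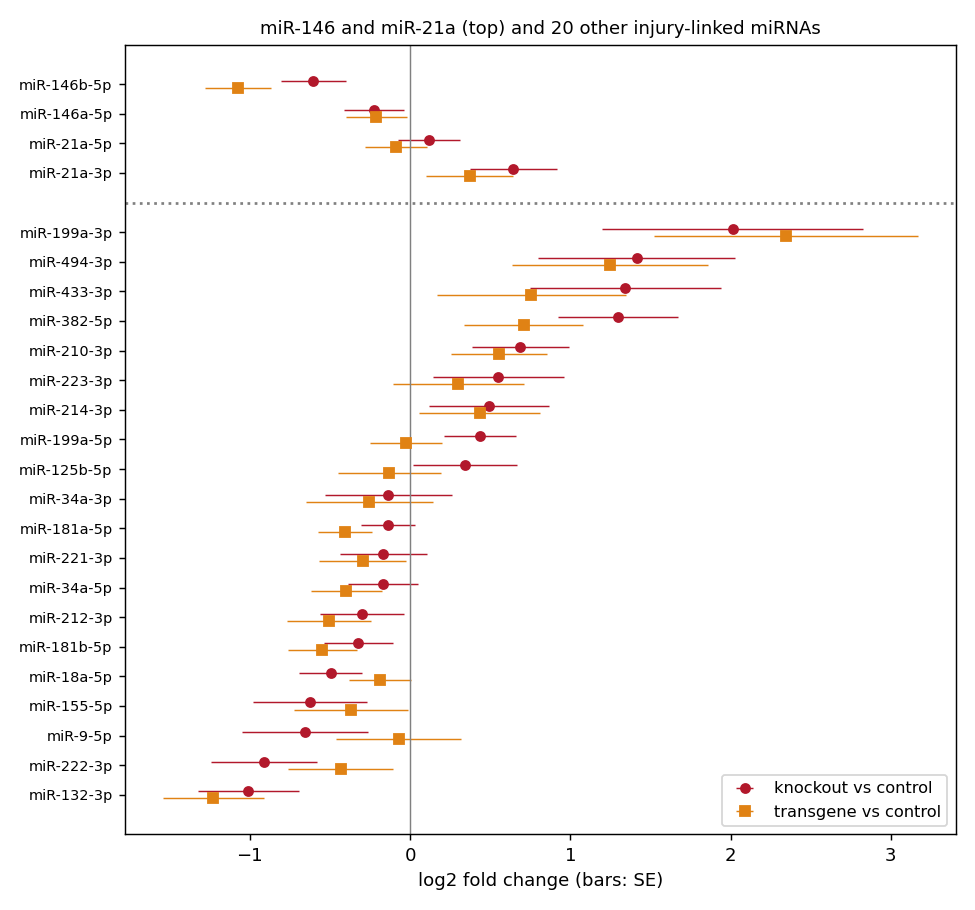
Log2 fold changes against control (x axis, bars are SE) for miR-146 and miR-21a above the dotted line and for 20 other injury-linked miRNAs below it, with the knockout as red circles and the transgene as orange squares. miR-146b-5p lies at -0.60 in the knockout and -1.08 with the transgene, and the 20 other miRNAs spread on both sides of 0.

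Leukocyte markers were measured beside the miR-146 pair, since immune cells express miR-146a. Their part in the result was not tested. The 6 markers summed to 2067 to 2711 CPM in the knockout, 1586 to 2342 CPM with the transgene and 1521 to 1994 CPM in controls. By this sum, of which miR-342-3p was the largest part, the knockout lay above controls and the transgene overlapped them. By the mean log2 CPM of the 6 markers the knockout overlapped controls, at 7.29 in knockout 2 and 7.60 in control 2. Singly, 2 of the 6 lay wholly above controls in the knockout, where 12.9% of all miRNAs did so. With the transgene 2 lay wholly above and 1 wholly below controls, where 11.9% and 12% of all miRNAs did so. None was at 0 in any library. In the knockout 4 of the 6 folds were positive (median 0.43), and with the transgene 3 of 6 (median 0.11), and 0 passed the edgeR threshold in either. The knockout median was 0.41 without knockout 3. The most abundant, miR-342-3p, averaged 1404 CPM in the knockout and 1075 CPM with the transgene against 1133 CPM in controls. miR-142a-3p, found in blood cells of most lineages, averaged 393 and 390 CPM against 170 CPM, and miR-223-3p of myeloid cells 205 and 173 CPM against 140 CPM. The less abundant markers are given because the list was divided. miR-142a-5p averaged 149 and 105 CPM against 31.8 CPM. Lower than controls in both groups were miR-150-5p, at 95.4 and 62.6 CPM against 161 CPM, and miR-155-5p, at 77.9 and 93.2 CPM against 120 CPM.

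Values of 3 other cell type lists are given beside these results, and their part in them was not tested. The kidney epithelium list had 9 of 10 negative folds in the knockout (median -0.77) and 9 of 10 with the transgene (median -0.50). Its 3 most abundant members were miR-10a-5p with folds of -1.14 and -0.65, miR-196a-5p with -0.75 and -0.51, and miR-429-3p with -0.74 and -0.34. Whether these 3 mark epithelium alone was not tested. All 4 erythroid markers had positive folds in both (medians 1.27 and 0.89), at 1.07 and 0.44 for miR-451a, 1.39 and 1.10 for miR-144-3p, and 1.16 and 0.69 for miR-486a-5p. All 6 striated muscle markers did so too (medians 2.92 and 0.71), at 2.99 and 0.64 for miR-206-3p, 2.22 and 0.82 for miR-499-5p, and 3.21 and 0.62 for miR-133a-3p. Muscle marker sums overlapped between all groups, at 458 to 10513 CPM in the knockout, 468 to 1641 CPM with the transgene and 221 to 1254 CPM in controls. After TMM scaling no single muscle marker separated any pair of groups. Unscaled, miR-499-5p lay higher in all knockout libraries than in any control. Erythroid sums were 71656 to 112180 CPM in the knockout, 27202 to 79986 CPM with the transgene and 21371 to 52280 CPM in controls, so the transgene overlapped both other groups. Without knockout 3 the knockout medians were -0.48 for kidney epithelium, 0.90 for erythroid and 1.11 for muscle markers, with 5 of 6 muscle folds positive. None of the folds of these 3 lists passed the edgeR threshold. No marker of the 4 cell type lists was at 0 in any library, the lowest being miR-208b-3p with 1 read.

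The 4 miRNAs did not share 1 profile over the 9 libraries. The correlation of log2 CPM, a description over libraries that share scaling and fall into 3 groups, was Pearson r 0.69 (Spearman rho 0.78) between miR-146a-5p and miR-146b-5p. Between both arms of miR-21a it was r 0.14 (rho 0.18), and between miR-21a-3p and miR-146b-5p it was r -0.45 (rho -0.38).

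Among 461 miRNAs averaging at least 10 CPM, the profiles most like miR-146b-5p were those of miR-3473d (r 0.91, rho 0.87), miR-322-5p (r 0.89, rho 0.82) and miR-132-3p (r 0.83, rho 0.73). Without the 2 libraries farthest from the median, control 3 and transgene 3, these were r 0.92, 0.92 and 0.80. Those most like miR-146a-5p were miR-151-5p (r 0.92, rho 0.88), miR-139-5p (r 0.88, rho 0.90) and let-7k (r 0.87, rho 0.78). Without controls 2 and 3 these were r 0.86, 0.82 and 0.75. Those most like miR-21a-5p were miR-450b-3p (r 0.90, rho 0.98), miR-34b-3p (r 0.90, rho 0.87) and miR-449a-5p (r 0.89, rho 0.87). Without transgene 3 and knockout 3 these were r 0.95, 0.78 and 0.78. For miR-21a-3p the closest were miR-100-3p (r 0.81, rho 0.80), miR-1983 (r 0.75, rho 0.68) and miR-6958-3p (r 0.69, rho 0.67), and without knockouts 1 and 2 these were r 0.63, 0.43 and 0.29.

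Between knockout and transgene 1 miRNA of 955 passed the edgeR threshold (0.105%). It was miR-3067-5p, chosen after its values were seen because it was the single call, at a mean of 0.0256 CPM in the knockout and 2.43 CPM with the transgene (edgeR adjusted p 0.0285, 0 calls in each fit without a library other than transgene 3). The knockout level of miR-3067-5p was at the floor of counting, since 1 read of miR-208b-3p stood at 0.0407 CPM. The size of its difference is therefore uncertain. None of the 4 miRNAs passed the edgeR threshold between knockout and transgene, and miR-146b-5p alone among them did not overlap between these groups.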

How the data were processed

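Small RNA from whole kidneys was read in 9 libraries; RNA was extracted with Trizol and libraries followed a BGI protocol, per the labels' protocols. CASAVA 1.8, Bowtie2 and the build mm10 are listed in the submitters' processing notes without roles. The deposited values are whole-number read counts per small RNA name, which add up to the total in each file header (31743004 to 42609889). The deposited TPM equals the count per 1e6 of that total and was not used in tests.

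Counts of known mouse miRNAs (mature and hairpin rows of a name added; the 4 miRNAs had mature rows alone) went into edgeR 4.0.16 (R 4.3.3), after checks on simulated data: filterByExpr, TMM factors of 0.882 to 1.13, 1 fit over 9 libraries with 3 groups, quasi-likelihood F tests, Benjamini-Hochberg adjustment over 955 miRNAs and a threshold of 0.05. Standard errors are the fold divided by the root of F. DESeq2 1.42.0 was an alternative. Exact two-sided permutation tests compared count ratios. Replicates of each group differed by more than sampling noise. The spread behind each p-value is that between libraries and may be technical. Intervals on reads cover counting error only, since reads carry no molecular identifiers.

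The members and lists were chosen with earlier results of these data known. Named miRNAs were the 4 members, their other arms and seed partners, the 3 most abundant of each list with any past the threshold, and for each member the 3 closest profiles among miRNAs of at least 10 CPM. Where another miRNA is named, the text gives the reason. Sequences are from RefSeq and gene overlaps from GENCODE vM21, both of the mm10 assembly. All 4 members matched.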

Additional observations from a re-analysis of the deposited data

How the results depend on the processing

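miR-146b-5p kept its direction in all 3 comparisons under every setting tried. Its log2 fold was -1.18 to -0.94 with the transgene and -0.66 to -0.51 in the knockout with 1 library left out, and -1.08 to -0.86 and -0.60 to -0.39 under the other settings. It passed the threshold with DESeq2 in both comparisons with controls, and in none with edgeR. miR-21a-3p kept its direction too, at 0.49 to 0.92 in the knockout and 0.20 to 0.56 with the transgene with 1 library left out. miR-21a-5p with the transgene turned positive with total miRNA reads (0.10), all counted reads (0.041), a fit of both groups alone (0.004), without transgene 2 (0.051) and without transgene 3 (0.089), and was -0.34 at its lowest. miR-146a-5p, knockout over transgene, was 0.042 without knockout 3, 0.11 without transgene 1 and 0.002 without control 1, and -0.081 at its lowest. The causes were not tested.

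The count of miRNAs past the threshold was 0 to 48 in knockout against control with 1 library left out (48 without knockout 1, with none of the 4 among them), 0 in each such fit for the transgene, and 0 to 1 for knockout against transgene. DESeq2 gave 104, 4 and 3. For knockout against transgene the fit of both groups alone gave 0, and the replicate block gave 0. The 245 miRNAs with an unadjusted p under 0.05 in the knockout became 160 without control 1 and 159 without control 2. The 84 with the transgene became 37 without transgene 2, 48 without control 1, 51 without control 2, 155 without knockout 3 and 154 in the fit of both groups alone. For knockout against transgene the 67 became 42 in the fit of both groups alone.

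Same-numbered libraries did not deviate together (correlations of -0.30 to 0.10), so the numbers were not taken as pairs. With the replicate block the fold of miR-146b-5p was -1.08 with the transgene and -0.60 in the knockout, and no call on the 4 miRNAs changed. The log2 ratio of miR-21a-3p to miR-21a-5p, knockout over transgene, was -0.15 without knockout 1, -0.079 without knockout 2 and -0.025 without transgene 1, and ran from -0.15 to 0.36 with 1 library left out. No other ratio changed direction. A fit without 1 library leaves 2 in that group and assumes that they vary like the rest. Adding the Rfam families and giving list medians without knockout 3 were chosen after seeing the data.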
